A study of Mus musculus with 10 samples.

Results

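The genes described here encode the enzymes that write and erase acyl marks on histone lysines and the proteins that read them. They were chosen by name, as 43 symbols in 6 classes, and each matched a single row among the 34745 genes of the deposited table. They comprise 12 histone acyltransferases, 4 enzymes that supply or transfer lactyl and acyl groups, 4 class I deacetylases, 7 deacetylases of classes II and IV, 7 sirtuins and 9 readers. The RNA came from peritoneal lavage cells, the mixed cells rinsed from the abdomen, of mice with sepsis after cecal ligation and puncture (CLP). The labels name 5 libraries NC (NC 1 to NC 5) and 5 libraries AX (AX 6 to AX 10). Neither code is spelled out in the labels. The series compares amlexanox, an anti-inflammatory small molecule, with vehicle, and AX is taken here as the drug and NC as vehicle. All 10 libraries were thus read as coming from mice after CLP, and no library from mice without it was analysed here. The sources used here do not give strain, sex, age, dose, time or whether each library came from 1 mouse, so the p-values below measure the spread between libraries, which may be technical.

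Histone lysines carry acetyl groups and other short acyl groups such as crotonyl and lactyl, which loosen chromatin and recruit reader proteins. Acyltransferases such as p300 take the acyl group from a coenzyme A donor, while zinc-dependent histone deacetylases (HDACs) and NAD-dependent sirtuins remove it. Lactyl marks form from lactate, and in macrophages they are known for marking genes of the later, repair-related phase of activation. The alanyl-tRNA synthetase AARS, known for charging tRNA with alanine, can also transfer lactate to lysines. The data hold mRNA levels only, and neither enzyme activity nor any histone mark was measured in them.

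Levels are given as CPM, the count per 1000000 counts of its library, and total counts ran from 10221170 to 13806885 per library. The labelled cell mixture was checked against marker genes. All 15 neutrophil markers were detected, with a summed level of 10280.2 to 21081 CPM in NC and 7623 to 17174 CPM in AX, and the 15 markers of large peritoneal macrophages summed to 1036 to 2042 and 594 to 1641 CPM. S100a9, Lcn2 and S100a8 make up much of the neutrophil sum (medians 3999, 3375 and 2095 CPM), while Ly6g had a median of 26.4 CPM. F10 makes up much of the macrophage sum (median 1147 CPM). Of the 12 macrophage markers tested, 10 were higher and 2 lower in AX, beside 53.6% of all genes higher, with 0 passing. The sum of all 15 did not follow that split: it was lowest in AX 8 (594 CPM) and highest in NC 2 (2042 CPM). No direction is therefore read from these markers, and whether the split rests on single libraries was not tested. Vsig4, a marker of resident macrophages, was at 0 in most libraries, while Adgre1, Prg4 and Gata6 of the same list had medians of 50.5, 21.9 and 11.9 CPM. Markers of monocytes and small macrophages summed to 1767 to 4421 CPM in NC and 1403 to 4082 CPM in AX, above the large macrophage sum in every library. Sums were lower for B cells (77.4 to 278 and 112 to 285 CPM) and for T and NK cells (13.5 to 45.5 and 13.1 to 34.9 CPM). The 14 markers of mesothelium, the lining of the cavity, summed to 1248 CPM in NC 1 and 2395 CPM in AX 6 but to 122 to 397 CPM over the remaining 8, and of the 12 tested, all 12 had a higher fitted value in AX and 0 passed. Marker sums of stromal cells (1690.4 and 2983 CPM in NC 1 and AX 6, 287 to 913 elsewhere), red cells (955 and 1662, 86.3 to 531 elsewhere) and gut epithelium (1127 and 529, 17.1 to 426 elsewhere) were also highest in those libraries. In such mixed cells, fewer cells of a type and less RNA per cell cannot be told apart. AX 10 had the lowest neutrophil marker sum, 7623 CPM. Mitochondrially encoded genes held 20.1% of the counts in AX 10 and 18.6% in AX 8, against 4.47% to 15.7% elsewhere. The part of that share in the CPM values was not tested.

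The question for AX against NC was whether any of these genes differed in mRNA level with amlexanox. None of the 42 that passed the filter on low counts did at the adjusted threshold, and none had separate groups. With edgeR's quasi-likelihood test, 0 of 42 had a Benjamini-Hochberg adjusted p under 0.05 (smallest adjusted p = 0.9999), where 0% of the 12264 genes tested were called. At an unadjusted p under 0.05 there were 0 of 42, beside 0.921% of all genes, and in 0 of 42 did the CPM values of the groups not overlap, beside 0.0978% of all genes. DESeq2 also called 0 of the members, with 0 at an unadjusted p under 0.05. Of 20 alternatives, 4 left 1 member at an unadjusted p under 0.05: Sirt5 with limma-voom quality weights and, with edgeR, Sirt5 without NC 5, Hdac5 without NC 3 and Hdac9 without AX 6. None of these passed adjustment. The remaining gene, Hdac11, was too low to be tested.

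The fitted log2 fold changes lay around 0, with 24 above and 18 below it in AX and a median of 0.02, beside 0.02 over all genes tested. When libraries were scaled by their totals alone, the split turned to 16 higher and 26 lower, with a median of -0.03 beside -0.04 over all genes, so no direction can be read from it. Without AX 6 and NC 1, the libraries with the most mesothelial marker RNA, 27 were higher and 15 lower, and again 0 were called. Without AX 10 alone the split was 16 higher and 26 lower, with a median of -0.05. The 95% interval of the fold stayed within 2-fold either way for 30 of 42, or 71.4%, beside 58.9% of all genes. For the other 12 the data allow a difference of more than 2-fold. Counts were also simulated with known changes for AX against NC (12086 genes passing the filter). There, true 4-fold changes were called in 66 of 100 genes and true 2-fold changes in 5 of 100. In that simulation, true 2-fold changes were thus mostly missed. Of the genes given no change there, 4.26% had an unadjusted p under 0.05 with edgeR, beside 0.921% of all genes tested in the data. Whether the data would give as many calls as 66 and 5 of 100 was not tested.

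**Figure D1:**
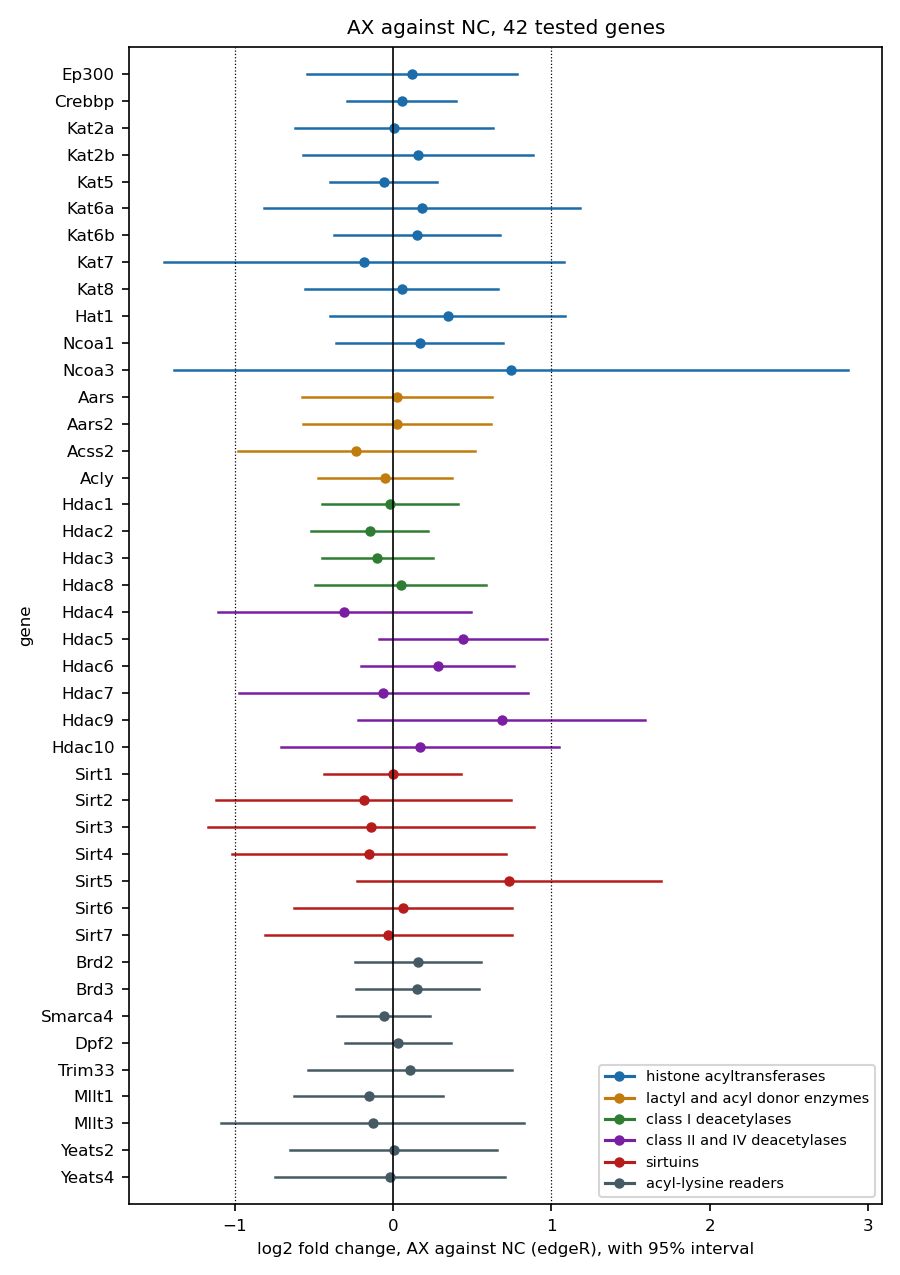
Each point is the fitted log2 fold change of a gene, AX against NC, and each line its 95% interval derived from the edgeR F test (5 libraries per group). Dotted lines mark 2-fold either way. Every interval spans 0, and Ncoa3 has the widest, from -1.38 to 2.87.

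Levels of different genes were compared per kilobase. The deposited FPKM (fragments scaled to gene length and library total) divides by a gene length that was 2.11 times the longest coding transcript of GENCODE M21 at the median, from 0.557 times for Hdac9 to 6.72 times for Sirt7. CPM per kilobase of that transcript is therefore given as well. On both scales Yeats4 stood highest, with a median of 61.7 FPKM or 65.5 CPM per kilobase, and Hdac11 lowest, with 0.0514 FPKM or 0.100. Brd2 (16.1 FPKM, 41.7 CPM per kilobase), Hdac1 (13.2, 37.97) and Acly (13.9, 25.8) were in the top 5 on both. Some places depended on the length used: Sirt7 ranked 22 of 43 by FPKM and 7 by transcript length, and Kat5 ranked 2 and 9.

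**Figure D2:**
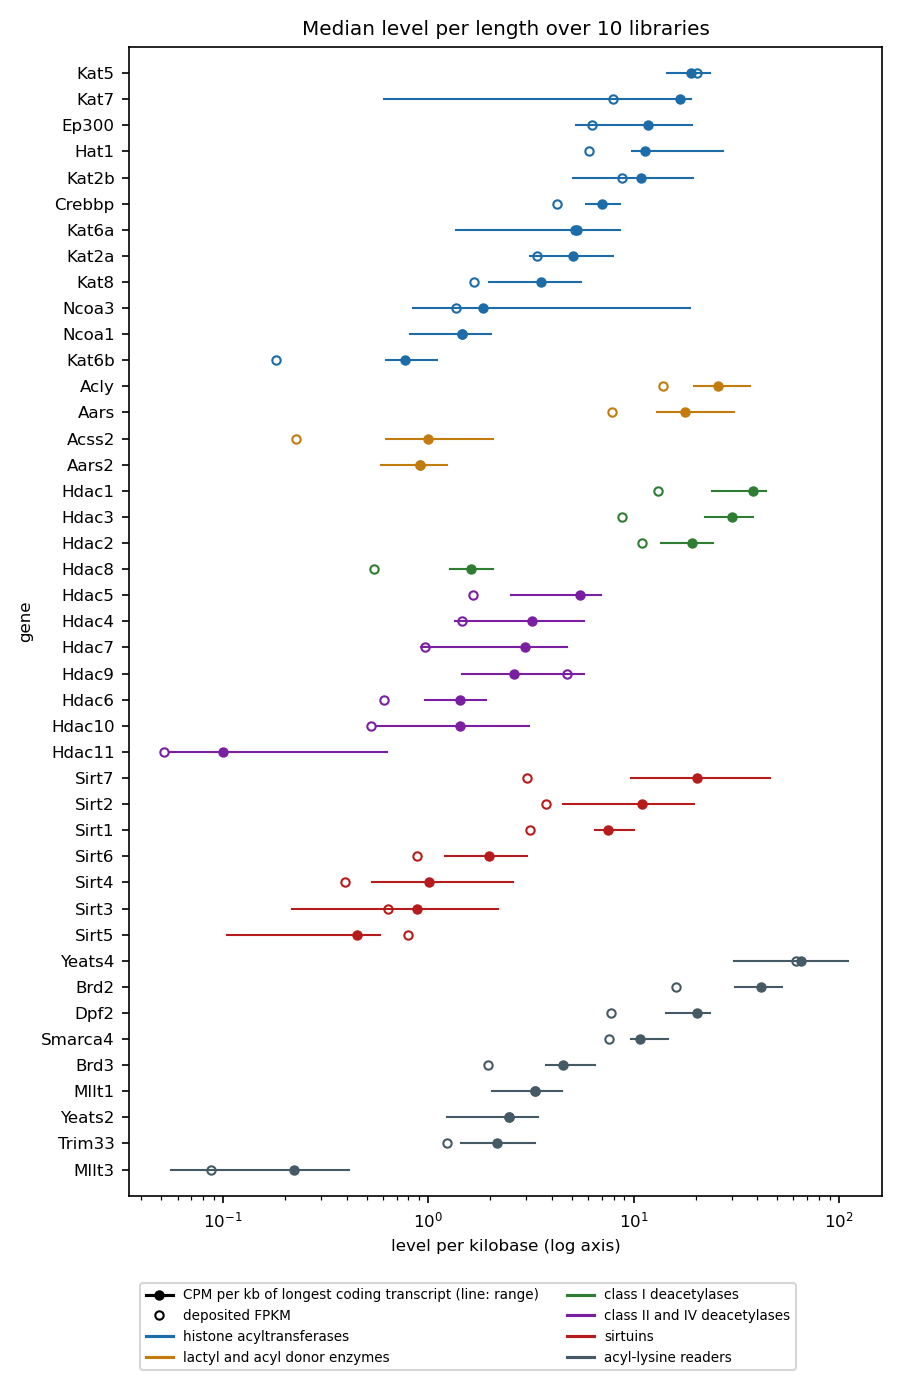
Filled points are the median CPM per kilobase of the longest coding transcript over 10 libraries, lines the range over libraries, and open points the median deposited FPKM (log axis). The order runs from Yeats4 at 65.5 down to Hdac11 at 0.100 CPM per kilobase.

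Among the 12 acyltransferases, the fitted value in AX was higher for 10 and lower for 2 (median 0.14 on the log2 scale); scaled by library totals the split was 8 and 4, with a median of 0.09. Without AX 10 the split turned to 3 higher and 9 lower, with a median of -0.07, so 1 library sets the direction. No member passed. Ep300, which encodes the coactivator and acyltransferase p300, also known as a histone lactyl writer, was at 94.9, 94.95, 103, 119 and 142 CPM in NC 1 to NC 5 and 50.1, 129.6, 116, 109 and 183 CPM in AX 6 to AX 10. The groups overlapped, and AX held both the lowest library, AX 6, and the highest, AX 10. Its log2 fold change was 0.12 ± 0.30 (SE; 95% interval -0.54 to 0.78), and without AX 10 it was -0.11. Crebbp, which encodes the related coactivator CBP, varied less, from 63.3 to 92.7 CPM, and its log2 fold change was 0.06 ± 0.16 (SE; 95% interval -0.29 to 0.40). The ratio of Ep300 to Crebbp in FPKM was 0.788 in AX 6, and 1.14 to 1.96 in the other 9; per kilobase of coding transcript it was 0.896 in AX 6 and 1.29 to 2.23 in the others.

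Kat7, which encodes the MYST family enzyme HBO1, was nearly absent from a single library. It was at 60.95, 57.4, 59.9, 52.8 and 59.7 CPM in NC 1 to NC 5 and 60.9, 67.7, 2.17, 65.1 and 57.8 CPM in AX 6 to AX 10, so AX 8 held 24 counts where the other 9 libraries held 52.8 to 67.7 CPM. The gene lies on chromosome 11, 95274259 to 95310246 of mm10 (minus strand), with no other gene at 1 CPM or more overlapping it. Its log2 fold change was -0.18 ± 0.57 (SE; 95% interval -1.45 to 1.08), and without AX 8 it was 0.12, which turns the direction. Ncoa3, which encodes a nuclear receptor coactivator, fell into separate high and low libraries in both groups. It was at 68.6, 15.8, 6.35, 7.76 and 65.7 CPM in NC 1 to NC 5 and 7.59, 8.001, 78.3, 12.2 and 141 CPM in AX 6 to AX 10. NC 1, NC 5, AX 8 and AX 10 were at 65.7 CPM or more and the other 6 at 15.8 CPM or less, with none between. Its log2 fold change was 0.74 ± 0.97 (SE; 95% interval -1.38 to 2.87), and without AX 10 it was -0.10. Sulf2, on the other strand, overlaps Ncoa3 by 154 bases and was highest in AX 6 at 37.9 CPM, where Ncoa3 was low, and in NC 1 at 33.6 CPM, where Ncoa3 was high, with 7.29 to 18.4 CPM elsewhere. The part of shared reads in the level of Ncoa3 was not tested. Kat7 and Ncoa3 were 2 of 33 members with a median of at least 5 CPM that had a library 4-fold or more from the median of the other 9, or 6.06%, beside 13.0% of all such genes.

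Kat5, which encodes TIP60, had the highest acyltransferase level per length and was steady, at 43.5, 46.2, 38.6, 44.9 and 34.7 CPM in NC 1 to NC 5 and 33.3, 50.5, 31.2, 45.2 and 33.3 CPM in AX 6 to AX 10. Rnaseh2c, on the other strand, overlaps it by 423 bases. AX against NC gave a log2 fold change of -0.06 ± 0.15 (SE; 95% interval -0.40 to 0.28). Hat1, which acetylates newly made histones before their assembly into chromatin, was at 39.4, 21.7, 20.6, 18.6 and 21.7 CPM in NC 1 to NC 5 and 51.96, 19.1, 28.2, 20.01 and 23.6 CPM in AX 6 to AX 10. NC 1 and AX 6 stood above all other libraries, which reached 28.2 CPM at most. The log2 fold change of Hat1 was 0.35 ± 0.34 (SE; 95% interval -0.39 to 1.09), and without AX 6 it was -0.02. Mesothelial, stromal, red cell and gut epithelial marker sums were highest in the same 2 libraries, and their part in the level of Hat1 was not tested. The other acyltransferases were Kat2a and Kat2b of the SAGA and ATAC complexes, Kat6a, Kat6b and Kat8 of the MYST family, and the coactivator gene Ncoa1. Kat6a ran from 12.4 CPM in NC 5 and 17.9 CPM in AX 7 to 78.5 CPM in AX 10, Kat2b from 23.6 to 90.9 CPM, Kat2a from 9.48 to 24.3 CPM, Ncoa1 from 5.93 to 14.8 CPM, Kat6b from 4.801 to 8.52 CPM and Kat8 from 3.12 to 8.76 CPM. Their log2 fold changes lay between 0.01 and 0.18, and their groups overlapped.

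**Figure D3:**
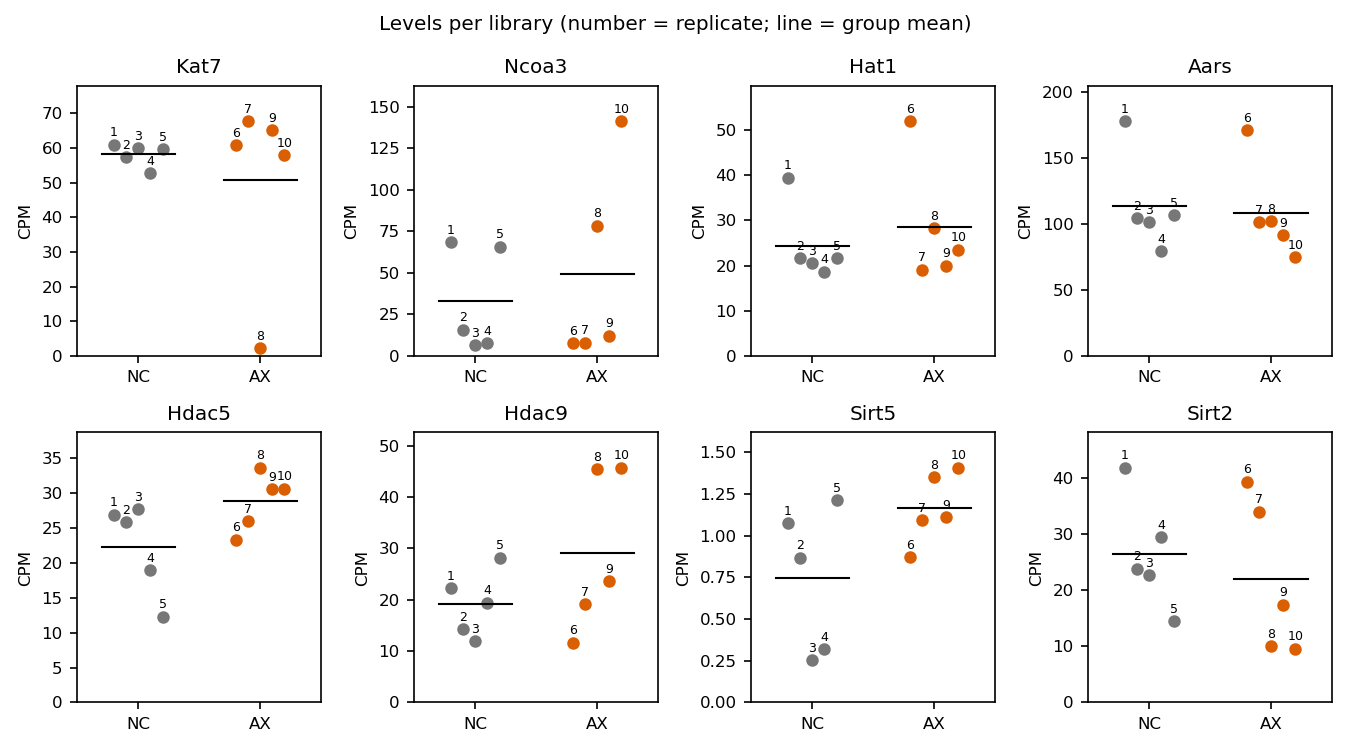
CPM per library for 8 genes (linear axis from 0); numbers are the replicate numbers and lines the group means. Kat7 drops in AX 8 alone, Ncoa3 splits both groups, and Hat1 and Aars are highest in NC 1 and AX 6.

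The enzymes of lactyl and acyl supply had 2 members higher and 2 lower in AX, or 0 and 4 scaled by library totals, and none passed. Aars, the cytosolic alanyl-tRNA synthetase that doubles as a lactyltransferase, was at 178, 105, 101, 79.2 and 107 CPM in NC 1 to NC 5 and 171, 101, 102, 91.7 and 74.7 CPM in AX 6 to AX 10. As for Hat1, NC 1 and AX 6 were far above the other 8 libraries, which held 74.7 to 107 CPM. The log2 fold change of Aars was 0.02 ± 0.27 (SE; 95% interval -0.58 to 0.63); without AX 6 it was -0.24 and without NC 1 0.18. Aars2, its mitochondrial counterpart and also a lactyltransferase, did not show these peaks: it was at 2.45, 3.62, 2.29, 3.44 and 3.30 CPM in NC 1 to NC 5 and 1.98, 4.13, 2.26, 3.85 and 2.82 CPM in AX 6 to AX 10. The ratio of Aars to Aars2 in FPKM was 18.7 in NC 1 and 22.2 in AX 6, and 5.92 to 11.6 in the rest. Per kilobase of coding transcript it was 42.4 in NC 1, 50.4 in AX 6 and 13.4 to 26.4 in the rest, so the size of the ratio depends on the length used.

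Because Aars is first a tRNA synthetase, its pattern was set beside the 19 other cytosolic aminoacyl-tRNA synthetase genes, a list added after the values of Aars were seen. NC 1 and AX 6 were the 2 highest libraries for 14 of the 19, or 73.7%, beside 20.3% of all genes tested. Relative to the median of the other 8 libraries, Aars was 1.76 times as high in NC 1 and 1.69 times in AX 6. Nars, for asparagine, reached 2.10 and 2.48 times, and Eprs, for glutamate and proline, 1.91 and 2.69 times. The exceptions were Dars, Farsa, Lars, Vars and Wars, and Wars, for tryptophan, lay below the median of the other libraries in both, at 0.945 and 0.674 times. Of the 42 tested members of the acylation set, 5, or 11.9%, had NC 1 and AX 6 as their highest libraries: Aars, Hat1, Brd2, Sirt2 and Hdac6. The mesothelial, stromal, red cell and gut epithelial marker sums peak in the same libraries, and their part in the level of Aars was not tested.

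**Figure D4:**
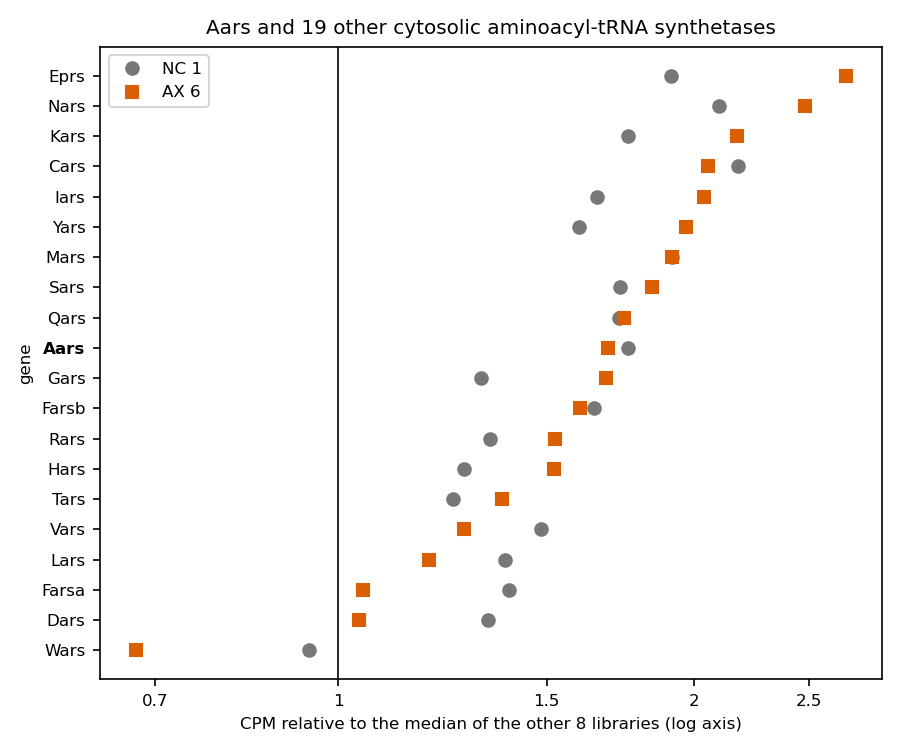
CPM of each cytosolic aminoacyl-tRNA synthetase gene in NC 1 (circles) and AX 6 (squares) relative to the median of the other 8 libraries (log axis). Aars, at 1.76 and 1.69 times, sits among the other genes, and Wars is the only one below 1 in both.

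The promoters of Aars, Hat1 and Aars2 are shown because Aars and Hat1 peak in the same libraries and Aars2 does not. They run from 250 bases before to 50 after the transcription start and come from RefSeq on GRCm38.p6, the mm10 assembly, at chr8:111033592-111033891, chr2:71389010-71389309 and chr17:45506582-45506881, all on the plus strand. Capitals mark matches on either strand to CCAAT, the box bound by NF-Y, and to TGATGNAAN, the C/EBP-ATF response element (CARE) known from promoters of amino acid stress genes.
Aars: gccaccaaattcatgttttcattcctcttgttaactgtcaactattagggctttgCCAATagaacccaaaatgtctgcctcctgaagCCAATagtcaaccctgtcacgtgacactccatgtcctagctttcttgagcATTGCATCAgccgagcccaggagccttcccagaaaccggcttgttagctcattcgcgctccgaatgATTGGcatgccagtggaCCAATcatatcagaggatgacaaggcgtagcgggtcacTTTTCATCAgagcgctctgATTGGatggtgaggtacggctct
Hat1: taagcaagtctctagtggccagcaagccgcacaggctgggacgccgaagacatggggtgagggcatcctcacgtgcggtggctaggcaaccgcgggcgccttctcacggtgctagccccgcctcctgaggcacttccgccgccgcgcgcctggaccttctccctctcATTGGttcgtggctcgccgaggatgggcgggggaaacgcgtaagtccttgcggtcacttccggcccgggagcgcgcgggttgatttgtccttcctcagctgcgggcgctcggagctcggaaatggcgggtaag
Aars2: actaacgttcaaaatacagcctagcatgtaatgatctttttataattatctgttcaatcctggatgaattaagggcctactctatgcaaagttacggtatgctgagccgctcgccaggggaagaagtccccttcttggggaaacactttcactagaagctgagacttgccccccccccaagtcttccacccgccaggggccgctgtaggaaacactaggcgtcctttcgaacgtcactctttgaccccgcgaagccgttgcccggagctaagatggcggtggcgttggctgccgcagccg
The Aars promoter holds 2 matches to the CARE letters, both on the other strand (ATTGCATCA and TTTTCATCA as printed), and 5 to CCAAT. Hat1 has 1 CCAAT match and no CARE match, and Aars2 has neither. Of 32851 mouse promoters of the same length, 3.95% hold a CARE match and 37.4% a CCAAT match, and among 51 promoters of the 37 acylation genes found in that table, 1 and 22 do. The GC box (GGGCGG), CRE (TGACGTCA) and TATA box (TATAAA) were also sought and are not marked. They occurred in 35.7%, 1.79% and 13.6% of all promoters, and in 31, 0 and 4 of the 51. Hat1 has a GC box match and Aars2 a TATA box match. The CARE and CCAAT matches do not overlap each other. Whether any of these matches bears on the levels was not tested.

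Acly, which makes acetyl-CoA from citrate in the cytosol and nucleus, was at 116, 164, 112, 123 and 86.7 CPM in NC 1 to NC 5 and 88.1, 149.8, 89.1, 149 and 87.4 CPM in AX 6 to AX 10. NC 2, AX 7 and AX 9 were the highest libraries and the groups overlapped throughout; the log2 fold change was -0.05 ± 0.19 (SE; 95% interval -0.47 to 0.37). Acss2, which makes acetyl-CoA from acetate and is also linked to lactyl-CoA, was low, at 2.94, 6.08, 2.12, 4.96 and 2.52 CPM in NC 1 to NC 5 and 1.82, 2.61, 2.89, 4.52 and 3.37 CPM in AX 6 to AX 10. AX against NC gave a log2 fold change of -0.23 ± 0.34 (SE; 95% interval -0.98 to 0.51). Gss, on the other strand, overlaps Acss2 by 22544 bases and was at 13.8 to 47.9 CPM. The sources used here do not say whether counting used strand, so reads of Acss2 and Gss cannot be told apart in the overlap.

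The class I deacetylases, nuclear enzymes that include known histone delactylases, had the lowest median spread between libraries of the 6 classes. Of the 4, 3 were lower and 1 higher in AX, or 4 and 0 scaled by library totals, and none passed. Hdac1 was at 70.1, 74.5, 78.1, 89.7 and 77.9 CPM in NC 1 to NC 5 and 48.8, 84.4, 85.6, 76.9 and 76.8 CPM in AX 6 to AX 10. AX 6 lay below all other libraries, which held at least 70.1 CPM. The log2 fold change of Hdac1 was -0.02 ± 0.19 (SE; 95% interval -0.45 to 0.41). Hdac2, the partner of Hdac1 in the Sin3, NuRD and CoREST complexes, was at 66.6, 69.7, 47.5, 78.7 and 70.5 CPM in NC 1 to NC 5 and 57.2, 71.9, 44.04, 58.1 and 58.2 CPM in AX 6 to AX 10, with AX 8 and NC 3 lowest. The fit gave a log2 fold change of -0.15 ± 0.17 (SE; 95% interval -0.52 to 0.22). Hdac3, the catalytic subunit of the NCoR and SMRT corepressors, was at 56.7, 77.1, 55.5, 68.8 and 62.7 CPM in NC 1 to NC 5 and 45.2, 65.4, 59.5, 69.1 and 49.4 CPM in AX 6 to AX 10, and its log2 fold change was -0.10 ± 0.16 (SE; 95% interval -0.45 to 0.25). These intervals bound the difference in AX to between 0.698 and 1.17 times the NC level for Hdac2 and between 0.731 and 1.19 times for Hdac3. The ratio of Hdac1 to Hdac2 was lowest in AX 6, at 0.828 in FPKM and 1.36 per kilobase of coding transcript, against 1.02 to 1.89 and 1.68 to 3.10 in the other 9 libraries. Hdac8, which acts on cohesin, was low, at 2.45 to 3.99 CPM.

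The deacetylases of classes II and IV held the smallest p of all members. Of 6 tested, 4 were higher and 2 lower in AX, the same split as when scaled by library totals (3 higher and 3 lower without AX 10), and the median was 0.23 on the log2 scale; none passed. Hdac5, a signal-dependent repressor that moves between nucleus and cytoplasm, was at 26.9, 25.9, 27.8, 18.95 and 12.3 CPM in NC 1 to NC 5 and 23.3, 26.03, 33.7, 30.6 and 30.7 CPM in AX 6 to AX 10. NC 5 and NC 4 were the lowest libraries, and 3 of 5 AX libraries lay above every NC library. Fitted as a log2 fold change, AX against NC was 0.44 ± 0.24 (SE; 95% interval -0.09 to 0.97), with p = 0.0950 before adjustment with edgeR, adjusted p = 0.9999, and an exact two-sided permutation p of 0.119. The smallest p that 5 against 5 can give is 0.00794. Hdac9, of the same class IIa, was at 22.2, 14.3, 11.9, 19.4 and 28.2 CPM in NC 1 to NC 5 and 11.6, 19.1, 45.4, 23.6 and 45.7 CPM in AX 6 to AX 10. AX 8 and AX 10 stood above all other libraries and AX 6 was the lowest. The log2 fold change of Hdac9 was 0.68 ± 0.41 (SE; 95% interval -0.22 to 1.59), with an exact permutation p of 0.317. Without AX 8 it was 0.40, and without AX 6 it was 0.88. The Hdac9 row covers chromosome 12 from 34371503 to 34528889, 18.1% of the span of the gene in GENCODE M21, so reads outside it may not be counted.

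Hdac4, another class IIa member, had the opposite sign, with 10.96 to 46.2 CPM and a fitted change of -0.31 ± 0.36 (log2, SE). AX 10, among the highest for Hdac9, was the lowest library for Hdac4 at 10.96 CPM. Hdac7, also of class IIa, had its lowest value in AX 7 (3.87 CPM) and its highest in NC 2 (19.99 CPM), and a fitted change of -0.06 ± 0.41 (log2, SE). The class IIb genes Hdac6, for a tubulin deacetylase, and Hdac10, for a polyamine deacetylase, were at 3.98 to 7.92 CPM and 1.34 to 7.43 CPM. Hdac11, the class IV enzyme and a remover of long fatty acyl groups, was at 1.66 CPM in NC 1 but 0.145 to 0.560 CPM elsewhere, or 2 to 17 counts.

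Of 7 sirtuins, 2 had the higher and 5 the lower value in AX (median -0.03 on the log2 scale); the split was 1 and 6 scaled by library totals and 3 and 4 with RLE factors. It turned to 5 higher and 2 lower with limma-voom and without AX 6, and to 4 higher and 3 lower without NC 1 or without NC 2, so no direction can be given. None passed. Sirt1, the main nuclear sirtuin, was at 43.8, 30.1, 33.1, 33.1 and 43.8 CPM in NC 1 to NC 5 and 28.7, 42.6, 28.8, 32.7 and 44.3 CPM in AX 6 to AX 10, a spread of 1.54 times from lowest to highest, and its log2 fold change was -0.0032 ± 0.20 (SE; 95% interval -0.43 to 0.43). Sirt2, the mainly cytosolic sirtuin, was at 41.8, 23.8, 22.7, 29.4 and 14.5 CPM in NC 1 to NC 5 and 39.3, 33.9, 10.02, 17.4 and 9.55 CPM in AX 6 to AX 10. NC 1 and AX 6 were highest, AX 10 and AX 8 lowest, and the log2 fold change was -0.19 ± 0.42 (SE; 95% interval -1.12 to 0.75); without AX 6 it was -0.56. Nfkbib, on the other strand, overlaps Sirt2 by 778 bases and was also highest in AX 6 and NC 1 (138 and 109 CPM) and lowest in AX 10 and AX 8 (32.8 and 55.3 CPM). The part of shared reads in the level of Sirt2 was not tested.

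The mitochondrial sirtuins were low. Sirt5, which removes succinyl, malonyl and glutaryl groups, was at 1.08, 0.869, 0.254, 0.320 and 1.21 CPM in NC 1 to NC 5 and 0.870, 1.09, 1.35, 1.11 and 1.41 CPM in AX 6 to AX 10. The AX libraries ran from 0.870 to 1.41 CPM. NC 1 and NC 5 lay inside that range and NC 2 at its lower edge, while NC 3 and NC 4 held 0.254 and 0.320 CPM. For Sirt5 the log2 fold change was 0.73 ± 0.44 (SE; 95% interval -0.23 to 1.69), with p = 0.121 before adjustment with edgeR, adjusted p = 0.9999, and an exact two-sided permutation p of 0.103. These levels rest on 3 to 18 counts per library, and the row starts at 43370710 on chromosome 13, inside the GENCODE M21 gene that starts at 43365496. Sirt3, the main mitochondrial deacetylase, and Sirt4 were at 0.347 to 3.52 CPM and 0.949 to 4.64 CPM. Psmd13, at 125 to 440.1 CPM, overlaps Sirt3 on the other strand by 342 bases. In the nucleus, Sirt6 was at 2.29 to 5.71 CPM. Sirt7, the nucleolar sirtuin, reached 79.8 CPM in NC 2 against 16.7 to 51.95 CPM elsewhere. Mafg, at 257 to 609 CPM, overlaps Sirt7 on the same strand by 124 bases. The part of shared reads in the level of Sirt7 was not tested.

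Of the 9 readers, 5 had the higher and 4 the lower value in AX (median 0.01 on the log2 scale); scaled by library totals, as also without AX 10, 3 were higher and 6 lower. None passed, and 8 of 9 had an interval within 2-fold. Brd2, a BET bromodomain protein that binds acetylated histone tails, was at 245, 206, 178, 155 and 146 CPM in NC 1 to NC 5 and 244, 209, 145, 183 and 206 CPM in AX 6 to AX 10. Both groups spanned almost the same range, and the log2 fold change was 0.16 ± 0.18 (SE; 95% interval -0.24 to 0.56). Brd3, its close relative, was at 35.2, 23.1, 23.9, 20.2 and 25.2 CPM in NC 1 to NC 5 and 22.4, 30.7, 23.2, 28.6 and 31.1 CPM in AX 6 to AX 10, with a log2 fold change of 0.15 ± 0.18 (SE; 95% interval -0.24 to 0.54). In FPKM, Brd2 was 6.04 to 11.3 times as abundant as Brd3 over the 10 libraries, and 6.77 to 12.7 times per kilobase of coding transcript. Smarca4, which encodes BRG1, the ATPase of the BAF remodelling complex, was at 77.2, 93.6, 62.97, 76.5 and 63.4 CPM in NC 1 to NC 5 and 61.8, 67.3, 62.7, 81.7 and 70.04 CPM in AX 6 to AX 10. Its log2 fold change of -0.06 ± 0.13 (SE; 95% interval -0.35 to 0.24) bounds the AX level to between 0.784 and 1.18 times the NC level.

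Yeats4, the YEATS domain subunit GAS41 of the TIP60 and SRCAP complexes, was at 66.8, 80.4, 83.4, 93.2 and 146 CPM in NC 1 to NC 5 and 40.8, 90.4, 115, 81.97 and 122 CPM in AX 6 to AX 10. NC 5 was highest and AX 6 lowest, the groups overlapped, and the log2 fold change was -0.02 ± 0.33 (SE; 95% interval -0.74 to 0.71); without NC 5 it was 0.22. Dpf2, a double PHD finger subunit of BAF, was at 47.5 to 78.4 CPM and had its lowest value in AX 6. Trim33, a bromodomain protein known to bind lactylated histones, was at 12.8 to 29.2 CPM. The YEATS domain genes Mllt1 (ENL) and Yeats2 were at 7.40 to 16.3 CPM and 7.49 to 20.8 CPM. Mllt3 (AF9) was near the detection limit, with 1.26 to 1.41 CPM in AX and 0.339 to 2.48 CPM in NC. The log2 fold changes of these 5 lay between -0.15 and 0.10.

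Spread between libraries of a group was read from the biological coefficient of variation (BCV) of edgeR. Its median was 0.362 over the 42 tested members and 0.378 over all genes tested. Smarca4 was among the steadiest genes of the table, with a BCV of 0.221, lower than all but 0.326% of genes tested. Dpf2 (0.236), Kat5 (0.238), Crebbp (0.239), Hdac3 (0.241), Hdac2 (0.249), Brd2 (0.254) and Brd3 (0.261) were also below the 10th percentile, so 8 of 42 members were. BCV was not compared at matched level. At the other end, Ncoa3 had 0.985, Kat7 0.632 and Kat6a 0.514. By class the median ran from 0.259 in class I deacetylases to 0.445 in classes II and IV.

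In single libraries several members departed from their medians at once, mostly at shares near or below those of all genes. In AX 6, 10 of 33 members with a median of at least 5 CPM lay 1.5-fold or more below their own median, or 30.3%, and so did 29.5% of all genes tested at that level. They include Ep300, Kat2b, Hdac1 and Yeats4. AX 8 had 5 of 33 (15.2%) that low, beside 24.4% of all genes. In NC 1, 4 members lay 1.5-fold or more above their median (12.1%, beside 17.6%). In AX 10, 6 did, or 18.2%, beside 8.63% of all genes: Ep300, Kat2b, Kat6a, Ncoa3, Hdac9 and Trim33. In AX 10, 2 members lay 1.5-fold or more below their median (6.06%, beside 17.6%).

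**Figure D5:**
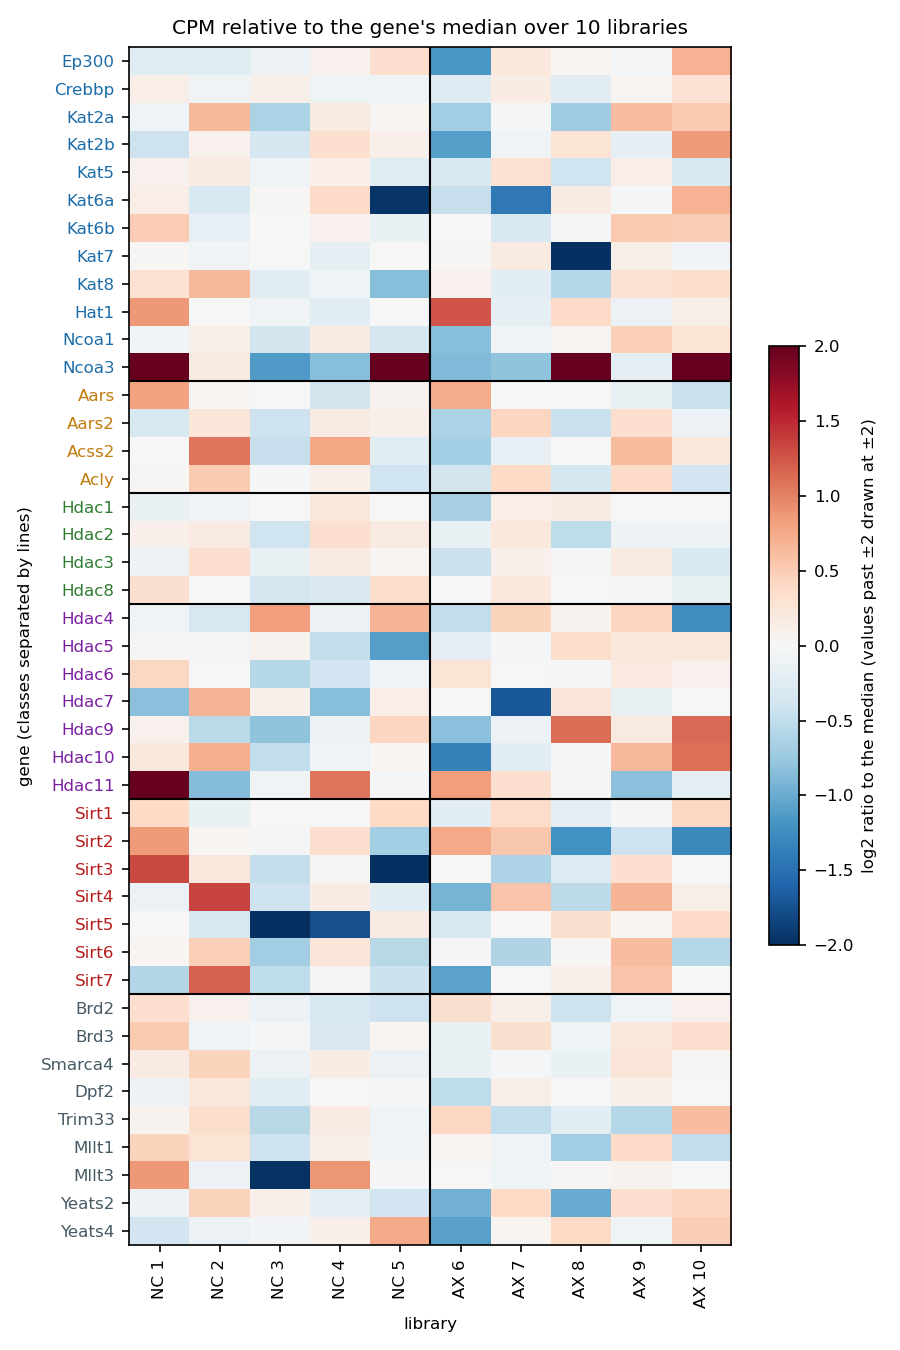
Colour gives the log2 ratio of each gene's CPM to its own median over the 10 libraries, with genes grouped by class and NC left of AX. Among the darkest cells, those of Ncoa3 lie in NC 1, NC 5, AX 8 and AX 10, and that of Kat7 in AX 8. AX 6 is blue at 1.5-fold or more for 10 of 33 well-expressed genes (30.3%, beside 29.5% of all such genes).

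Other genes of the same machinery were read from the same fit, in 3 lists without the 43 members; Rbbp7 and Brpf1 each stand in 2 lists. Of 35 partner subunits of acyltransferase complexes, 20 were higher and 15 lower in AX (median 0.04; 17 and 18 scaled by library totals), and 0 passed. Ing4, a reader subunit of the HBO1 complex, was at 17.1 ± 7.27 against 24.96 ± 5.48 CPM (AX against NC, SD, n = 5 each), Morf4l1, a chromodomain subunit, at 199 ± 24.6 against 248 ± 50.8 CPM, the scaffold gene Trrap at 25.6 ± 6.29 against 22.02 ± 5.19 CPM and Brpf3 at 7.86 ± 9.26 against 21.6 ± 10.8 CPM. Of 31 partner subunits of deacetylase complexes, 16 were higher and 15 lower (median 0.0044; 11 and 20 scaled by library totals), and 0 passed. Tbl1xr1, of the NCoR complex, was at 63.1 ± 75.2 against 153 ± 61.9 CPM, Hmg20b at 8.98 ± 3.43 against 12.6 ± 4.26 CPM, Rcor3 at 9.84 ± 1.77 against 7.44 ± 2.65 CPM and Gatad2b at 46.8 ± 10.4 against 35.5 ± 15.5 CPM.

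Of 28 other bromodomain genes tested, 22 were higher and 6 lower (median 0.15; 20 and 8 scaled by library totals), beside 53.6% of all genes higher, and 0 passed. Brd8, of the TIP60 complex, was at 22.9 ± 15.8 against 13.7 ± 3.74 CPM, Trim24 at 11.3 ± 2.04 against 8.83 ± 2.71 CPM, Taf1, of TFIID, at 6.94 ± 3.01 against 12.2 ± 7.94 CPM and Zmynd8 at 45.8 ± 20.1 against 36.7 ± 3.03 CPM. In each of these 12 genes the groups overlapped. At an unadjusted p under 0.05 with edgeR there were 0 genes in all 3 lists.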

How the data were processed

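Poly(A) RNA of 10 peritoneal lavage samples was sequenced, and reads were aligned with HISAT2 2.0.4 to mm10, as the submitters' processing notes list; which tool and annotation counted them, and whether by strand, is not given in the sources used here. Deposited values are raw read counts per gene, used as they are, and the FPKM values that the authors deposited equal the count over a gene length and the column total (largest gap between libraries 4.72e-05, over 9412 genes). The 43 members and all lists were chosen with earlier results of these data known.

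In R 4.3.3, edgeR 4.0.16 (filterByExpr, TMM, quasi-likelihood F test, no covariate) compared AX with NC over all 10 libraries, with Benjamini-Hochberg adjustment over 12264 genes; levels are CPM of the column total. Exact two-sided permutation used log2(CPM + 0.5). Within each class the members with the 2 smallest p, the highest FPKM, p under 0.05, separate groups or a library 4-fold from the others, and Ep300, Aars, Hdac1, Hdac3, Sirt1 and Smarca4, are given in every library; Aars2 was added after its values were seen. The other members are given by range and count. In each list the 4 genes with the smallest p are named. No 2 libraries agreed within sampling noise (chi-square over its degrees of freedom at least 41.7). Alternatives used DESeq2 1.42.0 and limma 3.58.1, other scalings and filters, and each library left out. The fit was tested on simulated data (2 false calls). Promoters matched 37 of 43 members. Plots used Python 3.11.15. The labels name no batch. Intervals cover these libraries only.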

Additional observations from a re-analysis of the deposited data

Results flagged for a closer look

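Within a group of 5, a library counted as far from the others when its gap to the nearest one exceeded 0.71 of the group's range in CPM. Of 86 groups (43 genes, AX and NC), 10 met this (11.6%), beside 12.2% of the groups over all genes tested. The rule gives about 1 in 20 by chance for normally distributed values. Kat7 was at 2.17 CPM in AX 8, where the other 4 AX libraries held 57.8 to 67.7 CPM. Hat1 was at 51.96 CPM in AX 6 (others 19.1 to 28.2) and at 39.4 CPM in NC 1 (others 18.6 to 21.7). Aars was at 171 CPM in AX 6 (others 74.7 to 102) and at 178 CPM in NC 1 (others 79.2 to 107). Mesothelial, stromal, red cell and gut epithelial marker sums were also highest in these 2 libraries, and their part was not tested. Hdac1 was low in AX 6, at 48.8 CPM against 76.8 to 85.6 CPM in the other 4. Dpf2 was low in AX 6, at 47.5 CPM against 67.5 to 72.9 CPM in the other 4. Sirt7 was high in NC 2, at 79.8 CPM against 23.5 to 35.5 CPM. Sirt4 was high in NC 2, at 4.64 CPM against 1.35 to 1.999 CPM. Hdac11, at very low counts, was at 1.66 CPM in NC 1 against 0.145 to 0.560 CPM.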

How the results depend on the processing

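No member passed under any of the alternatives run. Over all genes the count of calls was 0 in each, except 1 with DESeq2 and 1 without NC 3. Both times this was Rnf24, which is no member. Leaving out each library in turn gave 0 to 1. Genes at an unadjusted p under 0.05 with edgeR numbered 113 in the main fit, 433 without NC 1, 381 without AX 6 and 319 without both. Leaving out any other single library gave 99 to 145, and limma-voom with quality weights gave 380. The share at that threshold in the main fit, 0.921%, thus depended on NC 1 and AX 6. The median log2 fold change of the members lay between -0.039 and 0.051 over the other settings and between -0.054 and 0.061 with 1 library left out. Of 196 log2 fold changes of the 20 members given per library, 18 changed sign, none to beyond 0.079 either way: with RLE size factors, Sirt1 (0.00049); with library totals alone, Aars (-0.074); with limma-voom, Aars (-0.019), Sirt1 (0.0024); with limma-voom with quality weights, Kat5 (0.012), Hat1 (-0.035), Aars (-0.074), Acly (0.062), Sirt1 (0.070); with limma on log2(FPKM + 1), Aars (-0.069); with no filter on low counts, Hdac1 (0.0011), Sirt1 (0.017), Yeats4 (0.0046); with a filter of 50 counts in 5 libraries, Sirt1 (0.0024); with AX 6 and NC 1 left out together, an alternative added after seeing the data, Aars (-0.079), Hdac1 (0.016), Sirt1 (0.068), Yeats4 (0.031). With 1 library left out, 25 of 200 changed sign, with ranges for Sirt1 from -0.11 to 0.092, Aars from -0.24 to 0.18, Acly from -0.15 to 0.037, Hdac1 from -0.13 to 0.084, Yeats4 from -0.18 to 0.22, Hat1 from -0.022 to 0.53, Kat7 from -0.31 to 0.12, Ep300 from -0.11 to 0.30, Ncoa3 from -0.10 to 1.24, Sirt2 from -0.56 to 0.0018. Median levels with TMM-scaled CPM moved by less than the spread between libraries. For log2(FPKM + 1) only genes at 1 FPKM or more in 5 libraries entered; Acss2 and Sirt5 were not tested there. No paired analysis was possible because the groups share no replicate number. Depth limits the genes under 5 CPM, among them Sirt5, Acss2 and Hdac11.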
